A study of Mus with 2 samples.

Results

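Hypoxia-inducible genes are transcribed more when oxygen is low. Their main activator is HIF-1, a transcription factor whose alpha subunit is encoded by Hif1a. In oxygen, prolyl hydroxylases such as the product of Egln3 mark the alpha subunit for destruction. In low oxygen the subunit accumulates and switches on genes that adjust metabolism, mitochondria, blood vessels and matrix. Neutrophils, which live mainly from glycolysis, rely on this pathway for their energy supply and survival at inflamed sites, and parts of the bone marrow are themselves poor in oxygen.

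The genes described are the 10 rows, of 32285 in the gene list of the files, whose symbol is Hif1a, Egln3, P4ha1, Ankrd37, Pdk1, Bnip3, Bnip3l, Vegfa, Hilpda or Ndrg1. They belong to the hypoxia response but are not glycolytic enzymes. Hindlimb bone marrow of ground mice and of running mice was read cell by cell in droplets (Chromium kit, 3′ chemistry v3), with 1 RNA library per group. A unique molecular identifier (UMI) marks each captured transcript, so PCR copies count once. The labels give the groups only as ground and running and state no strain, age, sex, number of pooled mice, running schedule or device. With 1 library per group no difference below has a replicate check or a test, and what belongs to the library cannot be told apart from what belongs to the group.

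The ground library held 9162 barcodes and 85014860 UMIs, and the running library 9473 barcodes and 79990530 UMIs. After filtering, 8666 ground cells (median 5938 UMIs) and 9080 running cells (median 5146 UMIs) remained, and 24 barcodes occurred in both libraries. Cells were clustered with the 10 genes and the other pathway genes left out, so that these genes could not shape the clusters. The 33 clusters were named from marker genes, which gave 16 classes called by name with the ending "like". The progenitor, neutrophil, monocyte, B-lineage and erythroid classes that marrow should hold were all present. Levels are counts per 1e+06 UMIs of the class (CPM), and every interval is a 95% interval that covers counting error only. Ratios are log2 of running over ground, so that 1 in size is a 2-fold difference.

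All 10 genes are placed here by RefSeq on assembly GRCm38.p6, the assembly behind the submitters' build mm10. Hif1a (chromosome 12, 73901324 to 73947554) and Egln3 (chromosome 12, 54178981 to 54203874) share a chromosome. P4ha1 lies on chromosome 10 (59323197 to 59373304), Ankrd37 on chromosome 8 (45996908 to 46000414) and Pdk1 on chromosome 2 (71873215 to 71903858). Bnip3 lies on chromosome 7 (138890836 to 138909506) and its relative Bnip3l on chromosome 14 (66985238 to 67008877). Vegfa lies on chromosome 17 (46016993 to 46032377), Hilpda on chromosome 6 (29272488 to 29275449) and Ndrg1 on chromosome 15 (66929318 to 66969641). Some of these spans overlap another gene. Ankrd37 overlaps the protein-coding gene Ufsp2, Hif1a the long non-coding gene Gm15283, and Bnip3 the pseudogene Gm18258, which is not used here.

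Mature neutrophil-like cells (2334 in ground, 2949 in running) gave the largest differences. There Hif1a, Egln3, P4ha1, Ankrd37 and Pdk1 were each more than 2-fold lower in running. Bnip3 and Hilpda were lower by less than 2-fold, Vegfa and Bnip3l stood at about the same level in both libraries, and Ndrg1 was higher. Thus 5 of 10 genes were at or past 2-fold lower and 0 were past 2-fold higher. Both the 10 genes and this class were chosen with earlier results of these data known. The count, median and ranks given here therefore only describe them. Of all 7759 genes with at least 50 UMIs in this class, 1.78% were at or past 2-fold lower and 2.1% at or past 2-fold higher. The median log2 ratio was −1.14 over the 10 genes and 0.08 over all genes. P4ha1 had the 10th lowest ratio of the 7759 genes, Ankrd37 the 15th, Pdk1 the 20th and Egln3 the 24th.

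**Figure D1:**
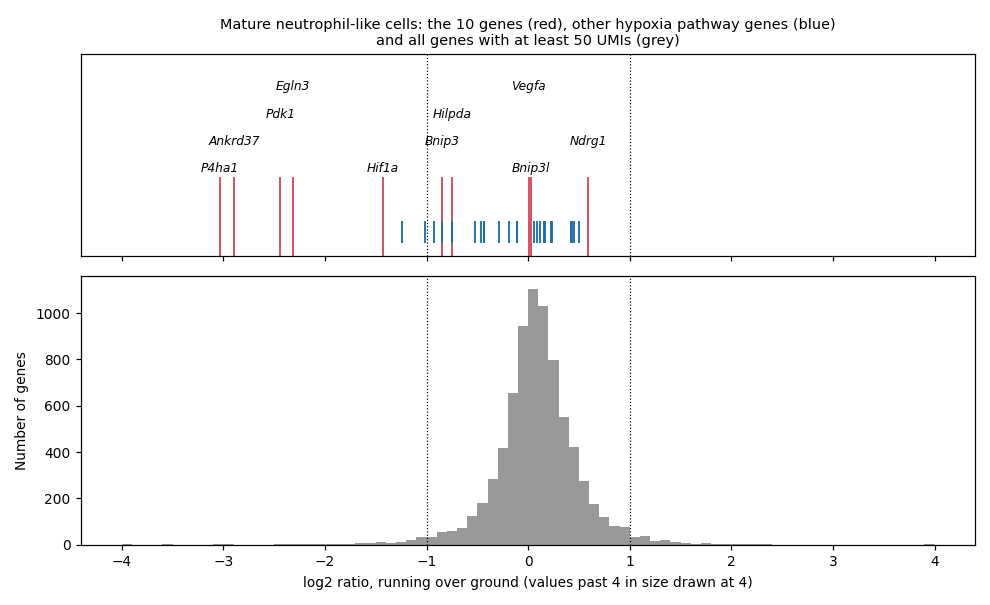
log2 ratio (running over ground) in mature neutrophil-like cells for the 10 genes (red lines), the other hypoxia pathway genes (blue ticks) and, as a histogram, all 7759 genes with at least 50 UMIs; dotted lines mark 2-fold. Hif1a, Egln3, P4ha1, Ankrd37 and Pdk1 lie left of the 2-fold line, whereas Bnip3l and Vegfa lie near 0.

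Among the regulators, Hif1a itself had 2003 UMIs in ground and 831 in running mature neutrophil-like cells. Its level was 209 CPM (200.4 to 219) in ground and 77.6 CPM (72.5 to 83.1) in running, 2.70-fold lower (log2 ratio −1.43, −1.55 to −1.31). The intervals of the levels were far apart. Egln3, the hydroxylase gene that is also a HIF target, had 471 and 106 UMIs, or 49.3 CPM (44.9 to 53.9) and 9.90 CPM (8.11 to 11.98). It was 4.97-fold lower in running (−2.31, −2.63 to −2.01), so both genes were lower in the same library. The long non-coding gene Gm15283, within the span of Hif1a, had 37 and 14 UMIs in these cells.

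P4ha1 encodes the catalytic subunit of the enzyme that hydroxylates proline in collagen. It had 176 UMIs in ground and 24 in running mature neutrophil-like cells. Its level was 18.4 CPM (15.8 to 21.3) against 2.24 CPM (1.44 to 3.34), the largest difference of the 10 genes at 8.21-fold (log2 ratio −3.04, −3.72 to −2.42). Ankrd37, a small ankyrin-repeat gene known as a HIF-1 target, had 365 and 55 UMIs, or 38.2 CPM (34.3 to 42.3) and 5.14 CPM (3.87 to 6.69). This was 7.43-fold lower in running (−2.89, −3.33 to −2.48). Its overlapping neighbour Ufsp2, which encodes a protease for the ubiquitin-like modifier UFM1, was also lower there (370 and 187 UMIs, −1.15, −1.41 to −0.89). Over all cells Ufsp2 stood at −0.20 and Ankrd37 at −1.44. Whether the authors' counting used strand is not stated, so UMIs of the overlapping stretch may be shared between this pair.

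The mitochondrial members split. Pdk1 encodes a mitochondrial kinase that inhibits pyruvate dehydrogenase. It had 92 and 19 UMIs in mature neutrophil-like cells, or 9.62 CPM (7.76 to 11.8) and 1.78 CPM (1.07 to 2.77), 5.42-fold lower in running (log2 ratio −2.44, −3.23 to −1.71). Bnip3 and Bnip3l encode related outer-membrane receptors that direct mitochondria to autophagy. Bnip3 had 500 and 311 UMIs, or 52.3 and 29.1 CPM, 1.80-fold lower (−0.85, −1.06 to −0.64). Bnip3l had 2048 and 2330 UMIs, or 214 CPM (205 to 224) and 218 CPM (209 to 227), with a log2 ratio of 0.02 (−0.06 to 0.11). The interval of Bnip3l thus holds no difference larger than 0.11, whereas that of its relative Bnip3 lies wholly below 0.

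Of the secreted and stress-response members, Vegfa, which encodes the main vessel growth factor, had 196 UMIs in ground and 220 in running (20.5 and 20.6 CPM, log2 ratio 0.00, −0.28 to 0.29). Hilpda, which encodes a lipid droplet protein that restrains triglyceride breakdown, had only 45 and 30 UMIs (4.71 and 2.80 CPM, −0.75, −1.46 to −0.05). Ndrg1, a stress- and differentiation-induced gene, was the single member higher in running by its interval, with 539 and 909 UMIs, or 56.4 and 84.9 CPM (0.59, 0.44 to 0.75). The 10 genes therefore did not move as a block in these cells.

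The mature neutrophil-like class was made up of different clusters in the libraries. Of its ground cells, 39.8% were in cluster 14 and 29.0% in cluster 7, against 2.1% and 0.8% of its running cells. Cluster 9 took 5.1% of ground and 32.2% of running cells, and cluster 8 took 2.3% and 33.7%. Cluster 3, led by Il1b, Ptgs2 and Fgl2, held 23.8% and 31.1% and is the cluster with many cells of both libraries (555 and 918). Within cluster 3 the log2 ratio was −2.82 (−3.46 to −2.23) for Ankrd37, −2.80 (−3.76 to −1.94) for P4ha1, −1.74 (−2.33 to −1.18) for Egln3 and −1.03 (−1.30 to −0.75) for Hif1a. Pdk1, with 21 and 14 UMIs, stood at −1.31 (−2.40 to −0.27), under the 50 UMIs asked of a gene that is counted. Bnip3 stood at −0.22 (−0.60 to 0.16) and Ndrg1 at 0.91 (0.56 to 1.26). The differences of P4ha1 and Ankrd37 were thus about as large among cells of a shared cluster, and that of Bnip3 was not.

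Across the 5 mature clusters, the point values of Hif1a, Egln3, Ankrd37 and Pdk1 were lower in running in 5 of 5, and that of P4ha1 in 4 of 5. Some of these directions rest on almost no UMIs. In cluster 9 Pdk1 had 2 UMIs in ground and 1 in running, and Ankrd37 had 3 and 1. For Hif1a, Egln3 and Ankrd37 the interval lay below 0 in 4 clusters, for Pdk1 in 2 and for P4ha1 in 1. The exception for P4ha1 was cluster 8, where 54 ground cells held 0 UMIs, which allows up to 14.1 CPM, and 994 running cells held 3. Cluster 9 is led by Retnlg, Mmp8 and Mmp9. In it Hif1a stood at 129 CPM in 120 ground cells and 63.6 CPM in 951 running cells (log2 ratio −1.02, −1.37 to −0.65). In cluster 8, led by Jaml, Cstdc4 and Stfa2l1, Egln3 stood at 75.3 and 10.9 CPM (−2.79, −3.67 to −1.85). Ankrd37 was at 47.0 and 6.58 CPM there (−2.84, −3.97 to −1.60). The 25 running cells of cluster 7 and 61 of cluster 14 are too few to give P4ha1 or Pdk1 a level: both had 0 UMIs, which allows up to 42.1 and 11.6 CPM. Those limits lie above the ground levels of P4ha1 (32.8 and 7.65 CPM) and Pdk1 (18.1 and 4.75 CPM). Clusters 7 and 14 therefore give no direction for P4ha1 or Pdk1, although the tally counts them as lower.

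**Figure D2:**
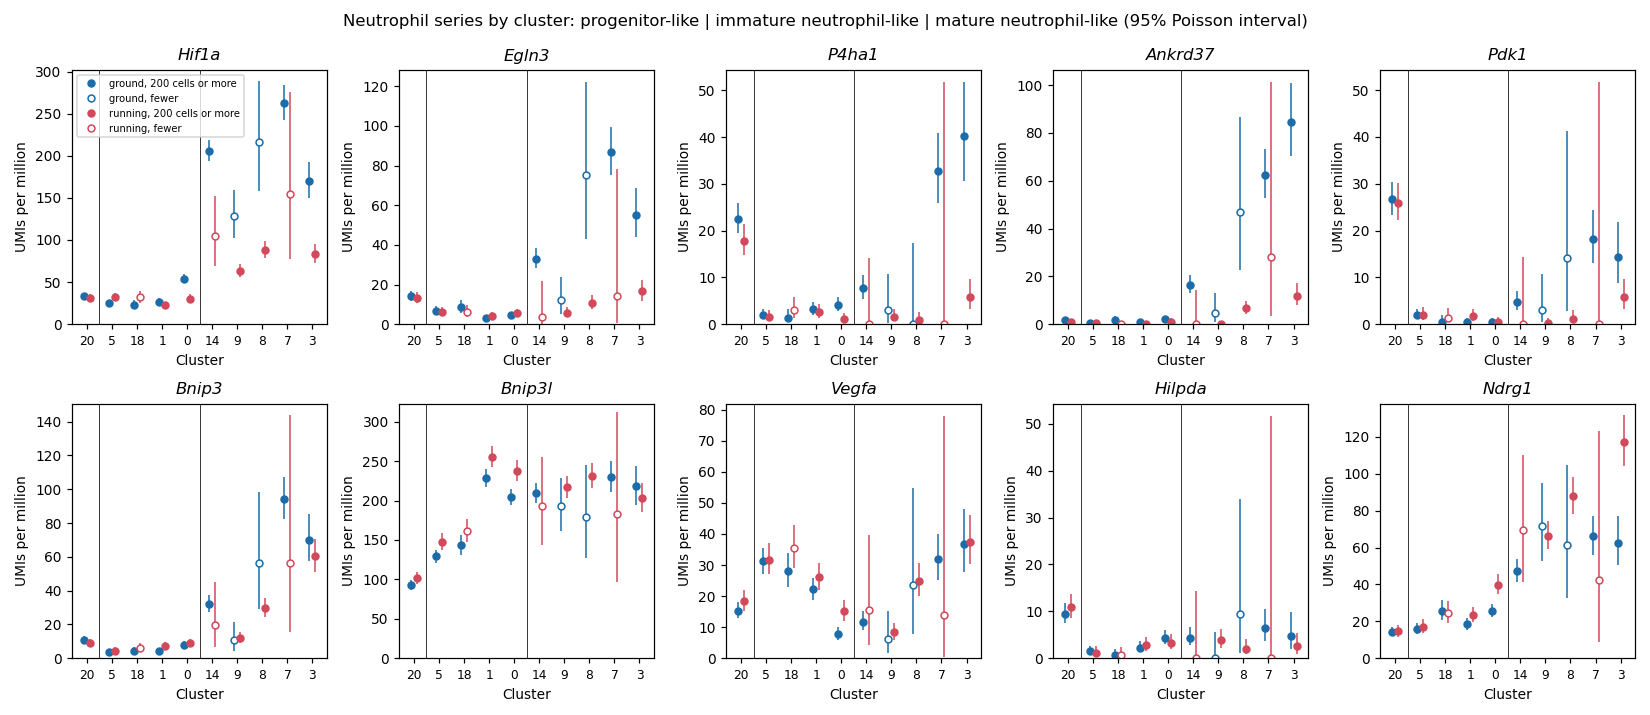
Level of each gene in counts per 1e+06 UMIs (CPM) along the neutrophil series, by cluster and library, with 95% Poisson intervals; clusters run from progenitor-like (20) through immature (5, 18, 1, 0) to mature neutrophil-like (14, 9, 8, 7, 3), ordered within each class by falling median UMI count, and open points have under 200 cells. In mature cluster 3, Hif1a (170 and 83.3 CPM), Egln3 (55.2 and 16.5 CPM) and P4ha1 (40.2 and 5.77 CPM) are higher in ground, whereas Bnip3l (218 and 203 CPM) is similar.

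Between immature and mature neutrophil-like cells the genes differed in the size of their step. Egln3, P4ha1 and Pdk1 were present before it, at 14.1, 22.5 and 26.8 CPM in ground granulocyte-monocyte progenitor-like cells. The running progenitor-like cells held them at 13.2, 17.9 and 26.0 CPM. In ground, Hif1a stood at 34.0 CPM in immature and 209 CPM in mature neutrophil-like cells, 6.15-fold higher (5.68 to 6.67). In running it stood at 28.8 and 77.6 CPM, 2.69-fold higher (2.41 to 3.01). Egln3 was 9.20-fold higher in mature than in immature cells in ground (7.59 to 11.2) and 1.88-fold higher in running (1.41 to 2.49). P4ha1 was 6.41-fold higher in ground (4.85 to 8.54), against 1.15-fold in running, with an interval that includes 1 (0.66 to 1.97). Pdk1 gave 10.6-fold (6.67 to 17.6) and 1.29-fold (0.68 to 2.43). For the class as a whole, the running levels of P4ha1 and Pdk1 in mature cells could thus not be told from those in immature cells at this depth. In running cluster 3 alone both stood at 5.77 CPM (3.16 to 9.69, 14 UMIs each), above the immature levels of P4ha1 (1.95 CPM, 1.38 to 2.69) and Pdk1 (1.37 CPM, 0.90 to 2.01). Ankrd37 kept a step in running, of 10.8-fold (5.30 to 24.9), beside 29.4-fold in ground (20.6 to 43.3).

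Earlier stages differed less between the libraries. In granulocyte-monocyte progenitor-like cells (319 and 204), 9 of the 10 genes had at least 50 UMIs, with ratios from −0.33 for P4ha1 to 0.26 for Vegfa. 0 of these 9 were past 2-fold, and of all genes there 0.356% were past 2-fold lower and 0.744% higher. Every interval of the 9 included 0, and the median log2 ratio was −0.04, beside −0.01 over all genes. Egln3, for example, stood at 14.1 and 13.2 CPM (−0.10, −0.51 to 0.31), and Bnip3 at 10.7 and 8.71 CPM (−0.29, −0.80 to 0.20). Pdk1 stood at 26.8 and 26.0 CPM (−0.04, −0.34 to 0.25), but at −0.76 when CPM was averaged over cells.

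In immature neutrophil-like cells (2169 and 1887), 8 genes had at least 50 UMIs and 0 were past 2-fold, where 0.41% of all genes were past 2-fold lower and 0.88% higher. Vegfa was higher in running, with 535 and 490 UMIs (21.1 and 25.9 CPM, 0.30, 0.12 to 0.48). Ndrg1 (0.34, 0.16 to 0.52), Bnip3l (0.19, 0.13 to 0.25) and Bnip3 (0.37, 0.00 to 0.73) were also higher, beside a median of 0.10 for all genes of the class. Hif1a was lower (−0.24, −0.40 to −0.08), and Ankrd37, with 33 and 9 UMIs and so under the minimum of 50, stood at −1.45 (−2.70 to −0.35). The clusters of this class differed in direction for Hif1a. It was higher in running in the earliest clusters 5 (24.6 and 32.3 CPM, 0.39, 0.07 to 0.71) and 18 (23.3 and 31.8 CPM, 0.45, 0.01 to 0.89), and stood at −0.25 (−0.60 to 0.09) in cluster 1. Cluster 0, the immature cluster with the lowest median UMI count and Mmp8 and Ltf among its leading genes, differed the other way. There Hif1a stood at 54.1 and 30.5 CPM (−0.83, −1.10 to −0.57) and Vegfa at 7.78 and 15.1 CPM (0.95, 0.46 to 1.45). P4ha1 had 32 and 6 UMIs in this cluster (−1.89, −3.44 to −0.61). Vegfa was higher in the earlier immature clusters than in cluster 0, with 31.1 and 31.7 CPM in cluster 5, and stood at 36.8 and 37.5 CPM in mature cluster 3.

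Shares of cells gave the same picture after each cell was thinned to 1000 UMIs, which sets all cells to the same depth. This left out 43 ground and 16 running mature neutrophil-like cells. Cells with a Hif1a UMI made up 19.1% in ground (17.5 to 20.7%) and 7.26% in running (6.35 to 8.26%). Unthinned, at medians of 3826 and 3420 UMIs per cell, they made up 49.8% and 22.2%. For Egln3 the thinned shares were 5.81% and 1.30%, for Ankrd37 4.71% and 0.614%, for P4ha1 1.88% and 0.170%, and for Pdk1 1.13% and 0.273%. For Bnip3l they were 19.2% and 17.6%, with overlapping intervals. The UMIs were spread over many cells: those of P4ha1 in ground came from 147 cells with at most 4 in any cell, and those of Ankrd37 from 286 cells with at most 7.

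Free RNA can put a UMI into a cell that does not express a gene. T cell-like cells, with medians of 4491 and 5739 UMIs, had thinned Ankrd37 shares of 0.488% and 0.350%. Unthinned, only 3 of 207 ground and 11 of 287 running T cell-like cells held an Ankrd37 UMI, so these shares rest on few cells. The mature neutrophil-like shares were 0.614% (0.364 to 0.968%) in running and 4.71% (3.88 to 5.66%) in ground. By CPM, Ankrd37 in running mature neutrophil-like cells was 10.8-fold above running immature ones (5.30 to 24.9). The counts were 55 UMIs in 2949 mature cells and 9 in 1887 immature cells. Median depths differed, with 3420 UMIs per mature and 7883 per immature cell, so the CPM ratio does not measure background. Whether free RNA made up the running share was not tested. The running share of P4ha1 in mature cells (0.170%) is close to that of running immature neutrophil-like cells (0.160%) and below those of B cell-like cells (0.711% and 0.989%). Neither class was shown to lack P4ha1, so these shares do not measure background. How much of the running P4ha1 share was free RNA was not tested.

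**Figure D3:**
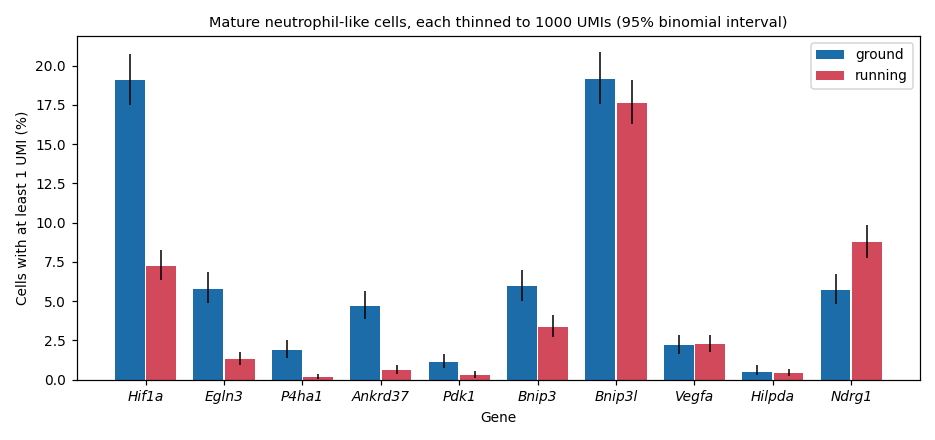
Percent of mature neutrophil-like cells with at least 1 UMI of each gene after thinning to 1000 UMIs per cell, in 2291 ground and 2933 running cells, with exact binomial 95% intervals. Ground bars are above running bars for Hif1a, Egln3, P4ha1, Ankrd37, Pdk1 and Bnip3, and Ndrg1 shows the opposite order.

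Other markers also moved in the mature neutrophil-like class. Of 25 mature neutrophil markers, 20 were lower in running, and their summed level was 69004 CPM in ground and 58890 CPM in running. Immature neutrophil markers stood at 22398 and 24014 CPM, with 10 of 19 higher in running. Erythroid markers stood at 741 and 1204 CPM (24 of 34 higher in running), and monocyte markers at 2029 and 2471 CPM (18 of 28 higher). No marker of these lists was at 0 in both libraries. Their part in the ratios of the 10 genes was not tested.

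Of the other 8 classes compared, only monocyte-like cells (1257 and 1111) had a member with at least 50 UMIs past 2-fold, 1 of 10 lower and 0 higher. Of all genes in this class, 0.741% were past 2-fold lower and 0.988% higher. That gene was Ankrd37, with 97 and 30 UMIs (6.42 and 2.27 CPM, 2.83-fold lower, with a log2 interval of −2.14 to −0.90). Hif1a was lower too, with 1267 and 687 UMIs, or 83.9 CPM (79.3 to 88.6) and 52.0 CPM (48.2 to 56.0), a log2 ratio of −0.69 (−0.83 to −0.55). In the clusters with more than 100 cells of each library, it stood at −0.89 in cluster 11, −0.45 in cluster 4, −0.38 in cluster 12 and −0.11 (−1.56 to 1.14) in the shallow cluster 15. P4ha1 stood at −0.27 (−0.51 to −0.03), and Ndrg1, which monocyte-like cells express strongly, at 85.5 and 86.3 CPM (0.01, −0.10 to 0.13). Mature neutrophil markers in these cells stood at 4381 and 3916 CPM, with 20 of 25 lower in running and none at 0. Their part in the Ankrd37 ratio was not tested. Stem and multipotent progenitor-like cells (115 and 117), too few for the comparison, had 43 and 19 UMIs of Egln3 (17.5 and 6.59 CPM, log2 ratio −1.41, −2.27 to −0.60). Of the other members with at least 50 UMIs there, Pdk1 (−0.50) and Ndrg1 (−0.52) had intervals below 0. Those of Hif1a (0.11), P4ha1 (−0.37), Bnip3l (−0.08) and Hilpda (0.15) included 0. The share of all genes past 2-fold was not computed for this class.

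In the 3 lymphoid classes compared, each interval of Hif1a included 0. Hif1a in T cell-like cells (207 and 287) stood at 78.8 CPM in both libraries (84 and 143 UMIs, log2 ratio −0.00, −0.40 to 0.41). In B cell-like cells (716 and 715) it stood at 76.8 and 81.0 CPM (0.08, −0.21 to 0.36), and in B-cell precursor-like cells at 52.6 and 51.7 CPM (−0.02, −0.34 to 0.30). Pdk1 in T cell-like cells stood at 63.8 and 64.4 CPM (0.01, −0.43 to 0.47), in contrast to its ratio in mature neutrophil-like cells. Ankrd37 had its second-highest ground level in B cell-like cells, at 28.1 CPM (21.8 to 35.5) and 22.2 CPM (17.1 to 28.4), with a ratio of −0.34 (−0.85 to 0.18). In B-cell precursor-like cells (431 and 512) Bnip3 was lower in running, with 45 and 43 UMIs (18.2 and 10.1 CPM, −0.84, −1.48 to −0.21). In T cell-like, B cell-like and B-cell precursor-like cells 0 of 4, 6 and 8 genes with enough UMIs were past 2-fold. The shares of all genes past 2-fold lower were 0.623%, 0.316% and 0.493% there, and past 2-fold higher 1.49%, 1.4% and 0.458%.

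Erythroid-like cells (544 and 471) had 7 genes with enough UMIs and 0 past 2-fold, beside 0.594% of all genes lower and 1.2% higher. Pdk1 was higher in running there, with 320 and 436 UMIs (30.2 and 37.1 CPM, 0.30, 0.09 to 0.51). Hif1a was lower (9.80 and 6.30 CPM, −0.64, −1.09 to −0.20), as was P4ha1 (12.2 and 7.83 CPM, −0.64, −1.04 to −0.24). As a mean of CPM over cells, Hif1a stood at −2.29 and P4ha1 at −1.38. That measure gives more weight to the shallow cluster 24, where Hif1a had 20 UMIs in ground and 2 in running. In the deep cluster 6 alone Hif1a stood at −0.35 (−0.83 to 0.13) and P4ha1 at −0.61 (−1.02 to −0.21). Median depth differed as well, with 8431 UMIs per ground and 15136 per running erythroid-like cell. Of 34 erythroid markers 32 were lower in running, with none at 0 and a summed level of 99910 against 66250 CPM, and haemoglobin genes took 8.08% and 5.01% of UMIs. Their part in the erythroid-like ratios of Pdk1, Hif1a and P4ha1 was not tested. In macrophage-like cells (63 and 217, medians of 823 and 945 UMIs) only Hif1a (8 and 49 UMIs, 0.44, −0.65 to 1.73) and Bnip3l (19 and 114 UMIs, 0.41, −0.30 to 1.19) reached 50 UMIs. A difference was not detectable there at this depth, and 2.48% and 4.91% of all genes were past 2-fold lower and higher. Markers of other types also moved in this class. Immature neutrophil markers stood at 22665 and 53121 CPM, with 15 of 19 higher in running. Erythroid markers stood at 21032 and 1556 CPM, with 23 of 34 lower, 5 higher and 6 at 0 in both. Their part in the macrophage-like levels and ratios was not tested.

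**Figure D4:**
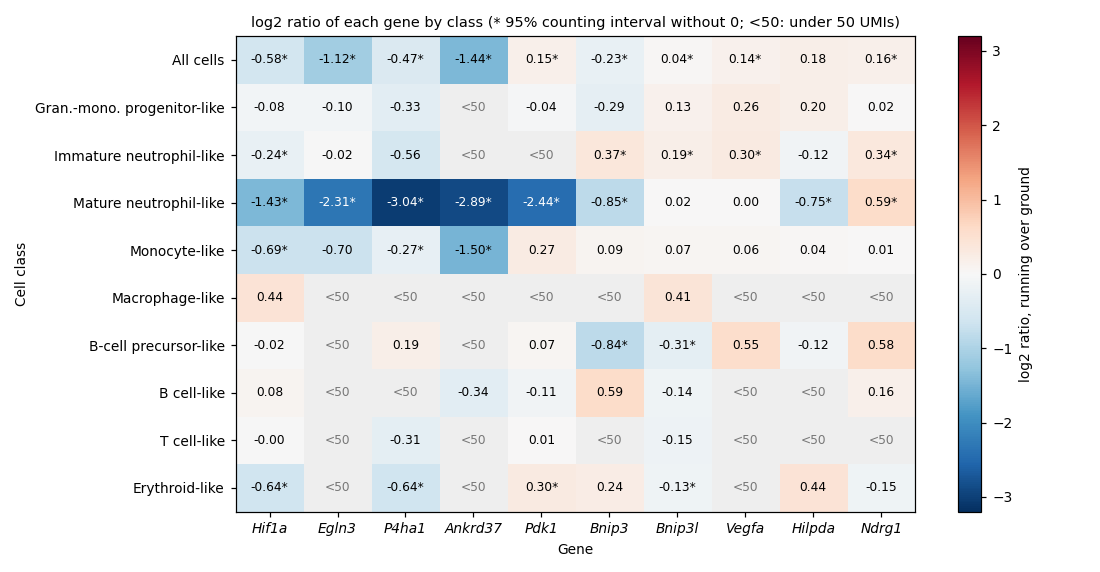
log2 ratio (running over ground) of each gene over all cells and in the 9 classes compared; colour and number give the ratio, a star marks a 95% counting interval without 0, and grey cells have under 50 UMIs. The row of mature neutrophil-like cells holds 5 ratios at or past 2-fold lower, and the only other class with one is monocyte-like (Ankrd37).

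Summed over all cells, Ankrd37 (635 and 224 UMIs, log2 ratio −1.44, −1.66 to −1.21) and Egln3 (853 and 376 UMIs, −1.12, −1.29 to −0.94) were past 2-fold lower in running. These were 2 of 10 genes, where 0.539% of all 13738 genes were past 2-fold lower and 2.48% higher. Mature neutrophil-like cells held 57.5% of the Ankrd37 UMIs and 55.2% of the Egln3 UMIs in ground, and 24.6% and 28.2% in running. Hif1a stood at −0.58 (−0.64 to −0.52) and P4ha1 at −0.47 (−0.60 to −0.34). Pdk1, in contrast, stood at 0.15 (0.03 to 0.27) over all cells, and mature neutrophil-like cells held only 8.24% of its UMIs in ground and 1.61% in running. When the running classes were weighted by their ground proportions, Ankrd37 stood at −1.59, Egln3 at −1.08, Hif1a at −0.70 and Pdk1 at 0.18.

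Each gene had its own order of cell classes, here over the 16 classes with at least 20 cells per library. Hif1a in ground was highest in mesenchymal stromal-like (221 CPM from 14 UMIs) and mature neutrophil-like cells (209 CPM), whose intervals overlap, and then in plasmacytoid dendritic-like cells at 153 CPM (129 to 180.4). It was lowest in erythroid-like cells (9.80 CPM). In running, the 7 highest classes ran from plasmacytoid dendritic-like (110.2 CPM) to basophil or mast cell-like (72.0 CPM), with each class overlapping the next. Egln3 in ground was highest in mature neutrophil-like cells (49.3 CPM), followed by macrophage-like cells (2 UMIs) and stem and multipotent progenitor-like cells (17.5 CPM, 12.7 to 23.6). In running, progenitor-like cells of the granulocyte-monocyte type came above mature neutrophil-like cells, at 13.2 and 9.90 CPM with overlapping intervals.

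P4ha1 was highest in macrophage-like cells in both libraries (62.8 CPM from 7 UMIs and 49.7 CPM from 25), overlapping the next class. Among monocyte-like cells it was highest in cluster 22, led by Ace and Adgre4, at 73.6 and 47.0 CPM. Immature neutrophil-like cells had the lowest P4ha1 level in both libraries (2.87 and 1.95 CPM). Pdk1 was highest in T cell-like cells (63.8 and 64.4 CPM) and lowest in immature neutrophil-like cells (0.905 and 1.37 CPM). Ankrd37 was highest in mature neutrophil-like cells in ground and in B cell-like cells in running. Bnip3 was highest in mature neutrophil-like cells in both libraries, in ground at 52.3 CPM (47.8 to 57.1), above conventional dendritic-like cells, the next class, at 18.6 CPM (12.3 to 27.1).

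Bnip3l was detected in every class, between 61.6 CPM in plasma cell-like and 214 CPM in mature neutrophil-like cells in ground. Bnip3l is known for clearing mitochondria from maturing red cells. In the haemoglobin-rich erythroid cluster 29 it stood at 589 CPM (469 to 729) in 28 ground cells and 745 CPM (608 to 903) in 30 running cells. In the earlier erythroid cluster 6 it stood at 163 and 148 CPM. P4ha1, Pdk1, Vegfa and Hilpda had 0 UMIs in cluster 29 in both libraries, which allows up to 21.0 CPM in ground and 21.7 CPM in running. Pdk1 levels in cluster 6 (31.5 and 37.8 CPM) lay above these limits. Against that cluster, the haemoglobin-rich cells thus differed in opposite ways for Bnip3l and Pdk1, although only 28 and 30 cells were read. In the shallow cluster 24 the Pdk1 intervals (11.7 to 32.2 and 19.1 to 49.7 CPM) reached below the limits. No direction can therefore be given for Pdk1 against cluster 24.

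Vegfa was highest in mesenchymal stromal-like cells, at 142 CPM (65.1 to 270.2, 9 UMIs) in 23 ground cells and 40.3 CPM (20.1 to 72.2, 11 UMIs) in 49 running cells. Immature neutrophil-like cells gave 54.9% of the ground Vegfa UMIs and 47.7% of the running ones. Hilpda was highest in B-cell precursor-like (15.4 CPM) and stem and multipotent progenitor-like cells (15.1 CPM) in ground, with overlapping intervals. Within the precursors it stood at 31.8 and 22.8 CPM in cluster 10, led by Vpreb1 and Igll1, and at 5.71 and 4.42 CPM in cluster 13, led by Rag1. Pdk1 (43.8 and 35.1 against 7.99 and 11.0 CPM) and Vegfa (26.3 and 29.1 against 9.13 and 9.93 CPM) followed the same order of these clusters, and Bnip3l the opposite (87.7 and 70.6 against 184 and 166 CPM). Ndrg1 was highest in basophil or mast cell-like cells in ground (120 CPM, 95.6 to 148), followed by monocyte-like cells (85.5 CPM, 80.9 to 90.2). In running, monocyte-like (86.3 CPM), mature neutrophil-like (84.9 CPM) and basophil or mast cell-like cells (82.3 CPM, 65.3 to 102.5) had overlapping intervals at the top.

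**Figure D5:**
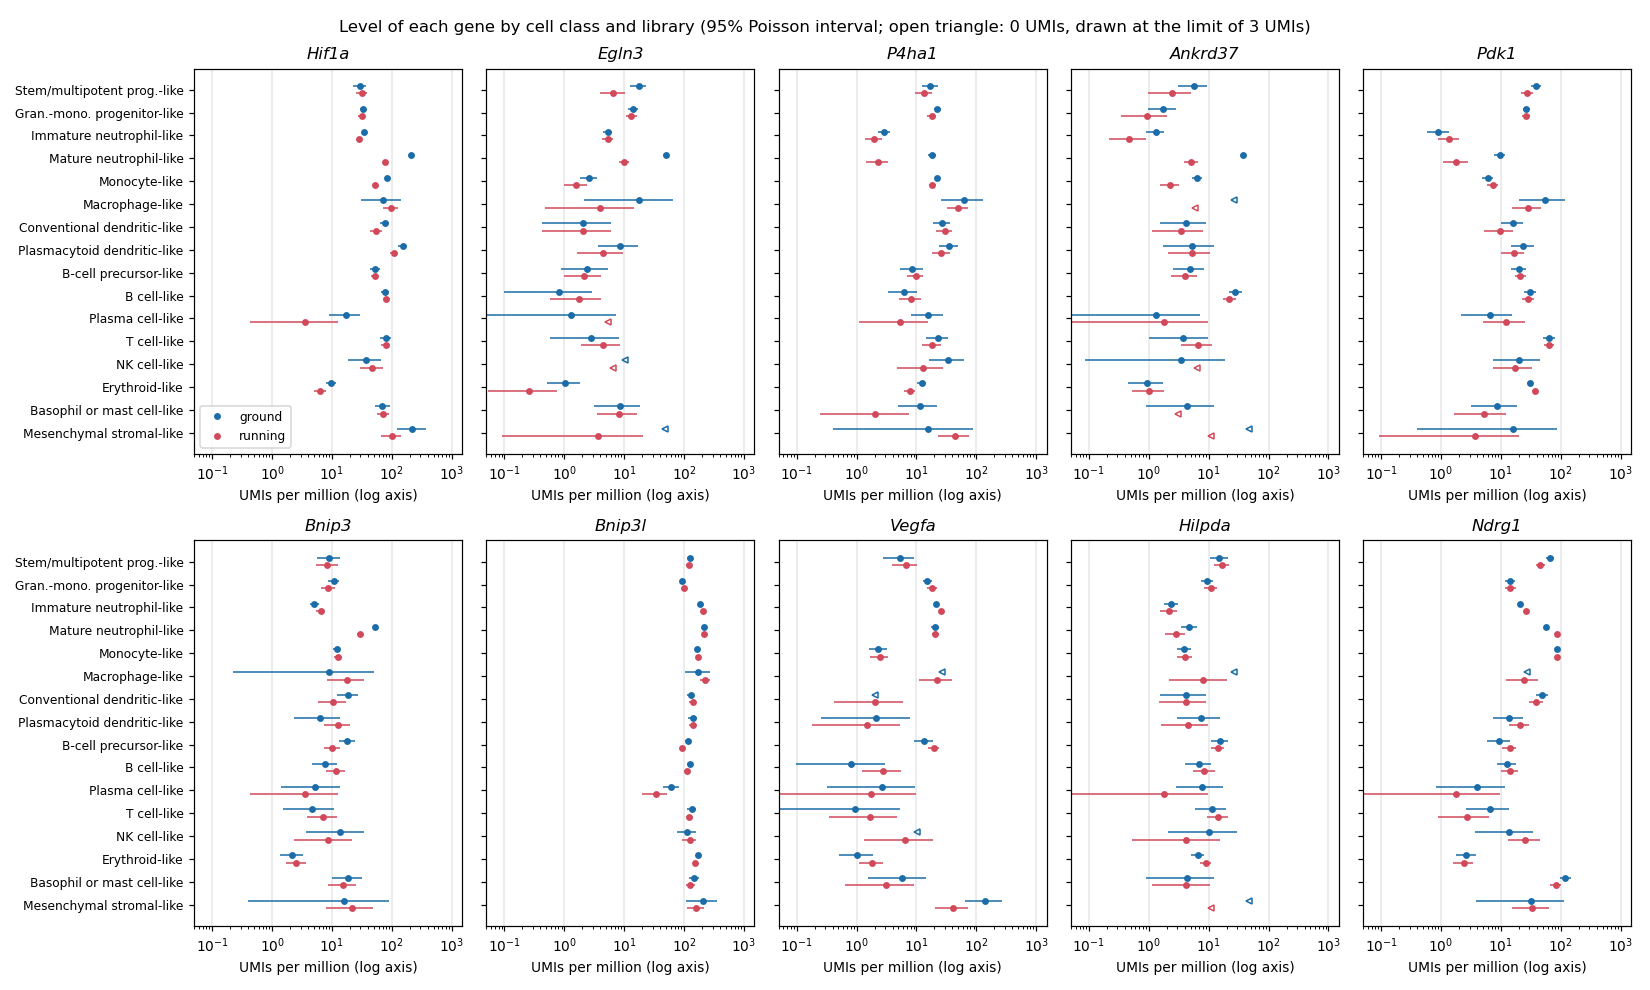
Level of each gene in counts per 1e+06 UMIs (CPM, log axis) in the 16 classes for ground and running, with 95% Poisson intervals; open triangles mark 0 UMIs, drawn at the limit of 3 UMIs. The libraries separate most in the mature neutrophil-like row of Hif1a, Egln3, P4ha1, Ankrd37 and Pdk1, and Bnip3l lies between 33.5 and 227 CPM in every class shown.

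The other genes of the hypoxia pathway were read from a list of 41 found in the files, 8 of them HIF subunits and regulators and 33 targets outside glycolysis. In mature neutrophil-like cells 25 had at least 50 UMIs, of which 2 were past 2-fold lower and 0 higher (1.78% and 2.1% of all genes). Their median log2 ratio was −0.11, beside 0.08 for all genes and −1.14 for the 10 genes. Ddit4, which encodes an inhibitor of mTORC1 signalling, had 186 and 88 UMIs (−1.24, −1.62 to −0.87). Ero1l, which encodes an oxidase for disulfide formation in the endoplasmic reticulum, had 276 and 153 UMIs (−1.01, −1.31 to −0.72). The 6 regulators with enough UMIs lay between −0.75 for the hydroxylase gene Egln1 (−1.05 to −0.46) and 0.42 for Vhl, the ubiquitin ligase subunit that recognises hydroxylated HIF (0.06 to 0.78). Arnt, the partner subunit of HIF-1 alpha, stood at −0.11 (−0.35 to 0.13).

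Outside mature neutrophil-like cells, Ddit4 was past 2-fold lower in running in monocyte-like (−1.25, −1.88 to −0.65), B cell-like (−1.21, −1.72 to −0.71) and T cell-like cells (−1.16, −1.75 to −0.58). These are classes in which Hif1a stood at −0.69, 0.08 and −0.00. The chemokine receptor gene Cxcr4 was past 2-fold lower in T cell-like cells (−1.06, −1.54 to −0.58), and Narf in B-cell precursor-like cells (−1.01, −1.35 to −0.67). The list thus had 1 of 27, 1 of 25, 2 of 20 and 1 of 25 genes past 2-fold lower in monocyte-like, B cell-like, T cell-like and B-cell precursor-like cells, and 0 past 2-fold higher. Of all genes in these classes, 0.741%, 0.316%, 0.623% and 0.493% were past 2-fold lower. The largest ratios elsewhere were those of Zfp395 (0.94) and Gbe1 (0.54) in granulocyte-monocyte progenitor-like, and Zfp395 (0.92) and Bhlhe40 (0.61) in the immature neutrophil-like class. For erythroid-like cells they were Kdm4b (0.73) and the transferrin receptor gene Tfrc (−0.61, from 8807 and 6382 UMIs). In monocyte-like cells Tfrc (−0.64), in B cell-like cells Cxcr4 (−0.82) and in B-cell precursor-like cells Cxcr4 (−0.96) followed the genes already named.

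The genes with the most similar pattern were taken over the 18 sums of class and library (9 classes compared, both libraries), by Pearson correlation of log2(CPM + 10) among 10061 genes. These points share 2 libraries and differ in depth, so the values are a description. Ndrg1 was nearest to Pik3r6 (0.95), Gm9733 and Atrnl1, and Hif1a to Lnpep (0.92), Ythdf3 and Gng2. Egln3 was nearest to Ifitm1 (0.82), Nek6 and Ston2, and Ankrd37 to 2310015A10Rik (0.82), Egr3 and Gripap1. P4ha1 was nearest to Itm2c (0.90), Akr1c13 and Scarb2, and Pdk1 to Ipo4 (0.91), Dusp19 and Ttc3. For Bnip3 the nearest were Csnk1e (0.89), Rnf34 and Rtf2, and for Bnip3l Rab6a (0.91), Ampd3 and Zfand2b. Vegfa was nearest to Oscp1 (0.84), Fhl3 and Dab2ip, and Hilpda to Tut1 (0.91), Dph2 and Aopep. The closest pair of members was Hif1a and Bnip3 (0.74). The lowest correlation among the 45 pairs was that of Pdk1 and Ndrg1 (−0.79).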

How the data were processed

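The authors deposited unnormalised UMI counts for every gene in each barcode. Per the file headers they came from Cell Ranger 5.0.0, and per the submitters' processing notes STAR and build mm10 were used. Strand use is not given in the sources. Barcodes with at least 500 UMIs, 250 genes and at most 10% mitochondrial UMIs were kept, which removed 253 ground and 293 running barcodes. Scrublet in scanpy 1.11.5 called 243 and 100 doublets (2.73% and 1.09%), which were removed. Clustering used 2000 variable genes without the members and the pathway list, 30 principal components, 15 neighbours and the Leiden algorithm (igraph 0.11.9, resolution 1), with no batch integration. Of 20 types with marker lists, each cluster was named for the one that had most markers among its 10 leading genes (highest fold over the other clusters among genes in at least 25% of its cells), with at least 3 detected. Monocyte-like cluster 15, erythroid-like cluster 24 and the macrophage-like cluster 25 are shallow, and heat shock genes Hspa1a and Hspa1b were among the leading genes of cluster 22.

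UMI counts were summed by class and library and scaled to CPM. Levels carry exact Poisson, shares exact binomial (Clopper-Pearson) and ratios exact conditional binomial intervals. A count of 0 is given a limit of 3 UMIs. Classes with at least 200 cells per library were compared, and macrophage-like cells with at least 50. The procedures were tested on simulated counts. All 10 members are named, with pathway genes past 2-fold in mature neutrophil-like cells and the 2 largest ratios in each other class. Members, the mature neutrophil-like class, lists, markers and alternatives were chosen with earlier results of these data known. Python 3.11.15, numpy 2.4.6, scipy 1.17.1 and pandas 2.3.3 were used.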

Additional observations from a re-analysis of the deposited data

Results flagged for a closer look

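Of the 10 genes, 3 had a ratio with its interval wholly below 0 in one class and wholly above 0 in another, so that the libraries differed in opposite directions by class. Of all 10760 genes with at least 50 UMIs in 2 or more of the classes compared, 25% met the same condition, a share near that of the members. Pdk1 had a log2 ratio of −2.44 in mature neutrophil-like and 0.30 in erythroid-like cells. For Bnip3 the immature neutrophil-like class gave 0.37, the mature class −0.85 and the B-cell precursors −0.84. The lower limit of the first was 0.00, below the median of all genes there (0.10). Bnip3l stood at −0.31 in B-cell precursor-like and −0.13 in erythroid-like cells, and at 0.19 in immature neutrophil-like cells, where the same median applies. Within B-cell precursor-like clusters 10 (69 and 140 cells), 13 (287 and 281) and 19 (75 and 91), Bnip3l stood at −0.31, −0.15 and 0.27, each with an interval that includes 0. The differences between classes were not tested, since each group has 1 library.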

How the results depend on the processing

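No paired analysis was possible because each group has 1 library. In mature neutrophil-like cells 5 genes were past 2-fold lower, and 4 to 7 under the alternatives. With only clusters with at least 10% of the class in both libraries (cluster 3), the members' median was −0.62 over the 8 genes that still had 50 UMIs and −0.99 over all 10, against −1.14. That setting also moved Hif1a to −1.03, Egln3 to −1.74, Bnip3 to −0.22, Bnip3l to −0.10 and Ndrg1 to 0.91. Within clusters 7, 8, 9 and 14 the median over members with at least 50 UMIs was −0.77, −0.43, 0.03 and −0.42. The genes behind these medians differ by cluster, and in clusters 7 and 14 genes with 0 running UMIs were left out. With at most 5% mitochondrial UMIs Bnip3 stood at −1.08. With a mean of CPM over cells, Pdk1 in granulocyte-monocyte progenitor-like cells stood at −0.76, against −0.04. At 1.5-fold 1 member was higher (Ndrg1). The pathway list had 2 genes lower in mature neutrophil-like cells, but 1 with doublets kept, at least 1000 UMIs per cell, resolution 2 or cluster 3 alone, and 6 at 1.5-fold. In the other classes it had 5 gene and class pairs lower, but 1 with at least 200 UMIs per gene and 12 at 1.5-fold. Pairs higher were 0, but 2 with a mean of CPM over cells and 4 at 1.5-fold. No ratio past 2-fold changed sign under these alternatives. For the members over all cells, 10 alternative values were counted as moved and 10 as the same. For the shares of cells, 38 were counted as moved and 2 as the same. Leaving out the shallow clusters 15 and 24 was an alternative chosen after seeing the data.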
